A study of Mus musculus with 32 samples.

Results

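The 10 genes described here encode aldehyde dehydrogenases (Aldh1a1, Aldh1a7 and Aldh2), alcohol dehydrogenases (Adh1 and Adh5), efflux pumps of the ATP-binding cassette family (Abcb1a, Abcb1b and Abcg2) and glutathione S-transferases of the mu class (Gstm1 and Gstm5). They were chosen by symbol from a table of raw gene counts that held 24421 genes, and all 10 were found in it. The table covered 32 RNA-seq libraries, 2 in each of 16 groups: 8 fractions of bone marrow cells, each from C57BL/6 females aged 10 weeks (Young) or 20 months (Aged). All groups shared this strain and sex, and no treatment or altered allele was named for any of them. The study described the marrow as pooled by age and sorted in duplicate in one passage and called its duplicates biological in another, so errors and p-values here measure the spread between these libraries, which may be technical.

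The fractions were sorted by surface antigens. Hematopoietic stem cells (HSCs) and multipotent progenitors (MPPs) were IL-7- Lin- Sca-1+ c-kit+ cells. Within that gate HSCs were CD34- CD150+ CD48- Flt3-, MPP1 carried CD34 and CD150 without CD48, and MPP2 carried CD34, CD150 and CD48. MPP3 carried CD34 and CD48 without CD150, and MPP4 had the antigens of MPP3 together with Flt3. Granulocyte and macrophage progenitors (GMPs) were Sca-1- c-kit+ cells with FcgR and CD34, megakaryocyte and erythrocyte progenitors (MEPs) lacked both, and common lymphoid progenitors (CLPs) were IL-7+ Lin- cells with low Sca-1 and low c-kit.

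Cells make reactive aldehydes and take up foreign compounds, and the enzymes and pumps encoded by these genes convert, conjugate or expel them. Aldh1a1 is a cytosolic retinaldehyde dehydrogenase that makes retinoic acid. Aldh1a7 is its close rodent paralog, Aldh2 is the mitochondrial enzyme that oxidizes acetaldehyde, and Adh5 oxidizes formaldehyde bound to glutathione. Mice without Aldh2 or Adh5 depend on repair of DNA crosslinks to keep their blood stem cells. Adh1 oxidizes ethanol and retinol. Abcb1a and Abcb1b encode the mouse forms of P-glycoprotein, which pumps out many drugs and the dye rhodamine, and Abcg2 expels the dye Hoechst and so marks the side population of stem cells. Gstm1 and Gstm5 join glutathione to electrophilic compounds.

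In the GENCODE annotation of GRCm38 (mm10, release M21) all 10 are protein-coding genes, and several are neighbors. Aldh1a1 (chr19:20492715-20643465, plus strand) and Aldh1a7 (chr19:20692953-20727562, minus strand) face each other on chromosome 19. Aldh2 lies at chr5:121566027-121593824 (minus strand), Adh1 at chr3:138260991-138290698 and Adh5 at chr3:138443093-138455499 (both plus strand). Abcb1a (chr5:8660077-8748575) and Abcb1b (chr5:8798147-8866315) follow each other on the plus strand, and Abcg2 lies at chr6:58584523-58695676 (plus strand). Gstm1 (chr3:108012255-108017973, minus strand) and Gstm5 (chr3:107895821-107898686, plus strand) belong to the cluster of Gstm genes on chromosome 3.

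Reads were 60 bases long, so stretches that 2 genes share over that length cannot be assigned with certainty. Of the 60-base words in the exons of Abcb1a, 19.9% also occurred in another gene, and the share was 15.6% for Gstm1 (with Gstm3, a Gstm2 pseudogene and others) and 10.8% for Abcb1b. It was 8.64% for Gstm5, all in an overlapping antisense gene, and 5.18% for Aldh1a7. For Aldh1a1, Adh1, Aldh2, Abcg2 and Adh5 it was between 0.109% and 2.11%. Counts of the Abcb1 and Gstm genes therefore carry more doubt about their source than those of Aldh1a1, Aldh2, Adh5 and Abcg2.

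The paralogs Aldh1a1 and Aldh1a7 are shown by sequence because their levels below went apart in HSCs and together in MEPs. RefSeq promoter sequences (GRCm38.p6) covered 9 of the 10 genes with 14 start sites, and Aldh2 was not in the table used. For 10 of the 14 starts the bases after the start were found in a transcript of the same gene. The 120 bases before a RefSeq start of Aldh1a1 that lies within the annotated gene (chr19:20601848-20601967, plus strand) and before the start of Aldh1a7 (chr19:20727557-20727676, minus strand) read as follows, 5′ to 3′ along each gene, with capitals at the 15 bases that differ.
Aldh1a1: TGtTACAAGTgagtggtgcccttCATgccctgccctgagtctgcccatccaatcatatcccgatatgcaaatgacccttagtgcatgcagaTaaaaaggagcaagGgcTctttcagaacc
Aldh1a7: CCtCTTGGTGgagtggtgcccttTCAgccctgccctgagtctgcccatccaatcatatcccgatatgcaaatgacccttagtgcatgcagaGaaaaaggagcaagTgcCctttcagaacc
Over these 120 bases 105 were identical (87.5%), while the 130 bases farther upstream had 24 identical positions (18.5%). Both windows held the octamer ATGCAAAT 56 bases before the start, a run found on either strand in 1.6% of all 250-base windows before RefSeq starts, and CCAAT 72 bases before it (33.8% of windows). The matches describe letters, and the counts do not show which start was used. At the other members TGACNNNGC, the core of the antioxidant response element, was found only before Gstm5 (10.2% of all windows), and GCGTG, the core bound by the aryl hydrocarbon receptor, before Gstm1 and Gstm5 (28.2%). The windows of Abcb1a and Abcb1b were 35.8% identical and those of Gstm1 and Gstm5 36.7% at their best shift, a choice that raises identity. The 250-base window of Abcb1a (chr5:8566841-8567090) lay far before the start of that gene in the annotation above.

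Total counts per library ran from 11237384 to 17723245. A level is given in CPM, a count scaled to a common library size with the TMM factor of its library. For a count of 0 a floor of 3 counts was used, which corresponded to 0.169 to 0.267 CPM of the raw total. It allows for counting error only, as the reads carried no molecular identifiers. Some duplicates differed by more, such as 0 and 40 counts of Abcb1b in Aged MEPs. A fold given below as at least a value therefore holds against this floor and is not a firm limit. At both ages HSCs had the highest level of Slamf1 (CD150), MPP4 of Flt3, GMPs of Fcgr3 and CLPs of Il7r. Cd34 was 0.351 CPM in Young and 0.629 CPM in Aged MEPs. Ly6a (Sca-1) was 35.2 CPM in Young CLPs, which were gated as low in Sca-1, but 214 CPM in Aged CLPs, against 162 to 210.5 CPM in the 4 Aged MPP fractions. Markers of other cell types moved with age as well. The summed level of 10 macrophage markers was lower in both Aged libraries than in both Young libraries in all 8 fractions, that of 10 red cell markers in 6 and that of 9 B lineage markers in 7. That of 8 listed T and NK cell markers was higher in Aged cells in 7 fractions, while Cd3d, Cd3e and Cd3g had group means of at most 0.438 CPM outside CLPs. Nkg7, highest in GMPs (711 CPM in Young and 1020 in Aged), made up most of that sum except in HSCs and Aged CLPs. In HSCs it was mostly Klrb1c (21.1 CPM in Young and 70.5 in Aged) and in Aged CLPs mostly Cd4 (78.6 CPM). Cd4 was lower in Aged HSCs (4.48 against 0.38 CPM) and in Aged MPP1 to MPP4. The part of these shifts in the results was not tested. In sorted bulk samples a smaller share of expressing cells and less RNA per cell cannot be told apart.

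Aldh1a1 rose with age in most fractions and was the member with the largest called changes, whereas the other age differences that were called were under 1 on the log2 scale. Aged was compared with Young in each fraction with the quasi-likelihood test of edgeR over 14154 genes, and a gene is called at an adjusted p under 0.01. All 10 members passed the filter on low counts. Over the 80 tests of a member in a fraction, 11 were called higher and 5 lower in Aged cells (20.0% together), while over all genes 7.01% of tests were called higher and 5.57% lower. Aldh1a1 gave 6 of the 11 higher calls, Aldh2 3 and Adh5 2, and Gstm1 gave 4 of the 5 lower calls and Aldh2 the other. Aldh1a7, Adh1, Abcb1a, Abcb1b, Abcg2 and Gstm5 had 0 called age tests. At an unadjusted p under 0.05 Abcg2 had 3 higher and 1 lower, Abcb1b 2 higher and 1 lower, Gstm5 2 lower, Abcb1a 1 higher, and Aldh1a7 and Adh1 1 lower each, and DESeq2 called 1 of these, Abcg2 lower in MEPs.

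By fraction, 0 to 2 members were called in each direction, and the share of all genes called stands in brackets. In HSCs 1 of 10 members was called higher (3.74% of all genes) and 0 lower (1.66%; 1 at an unadjusted p under 0.05 and 0 by DESeq2). MPP1 had 1 higher (4.71%) and 0 lower (2.09%), with 1 lower at an unadjusted p under 0.05 and 1 by DESeq2. In MPP2 1 member was higher (4.49%) and 1 lower (3.31%). In MPP3 2 were higher (8.14%) and 1 lower (5.79%), and in MPP4 2 higher (10.3%) and 2 lower (6.27%). GMPs had 1 higher (9.93%) and 0 lower (8.97%), and MEPs 1 higher (9.08%) and 0 lower (11.7%). For these zeros 2 members in GMPs and 4 in MEPs were lower at an unadjusted p under 0.05, and DESeq2 called 0 and 2. CLPs had 2 higher (5.71%) and 1 lower (4.73%). The median log2 difference of the 10 members was between -0.03 in MPP3 and 0.32 in MPP1, and that of all genes tested between -0.04 and 0.02. With genes at 0 set at their bounds, and those at or under 3 counts in both groups left out, the lowest median of the members was -0.07, in MEPs.

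**Figure D1:**
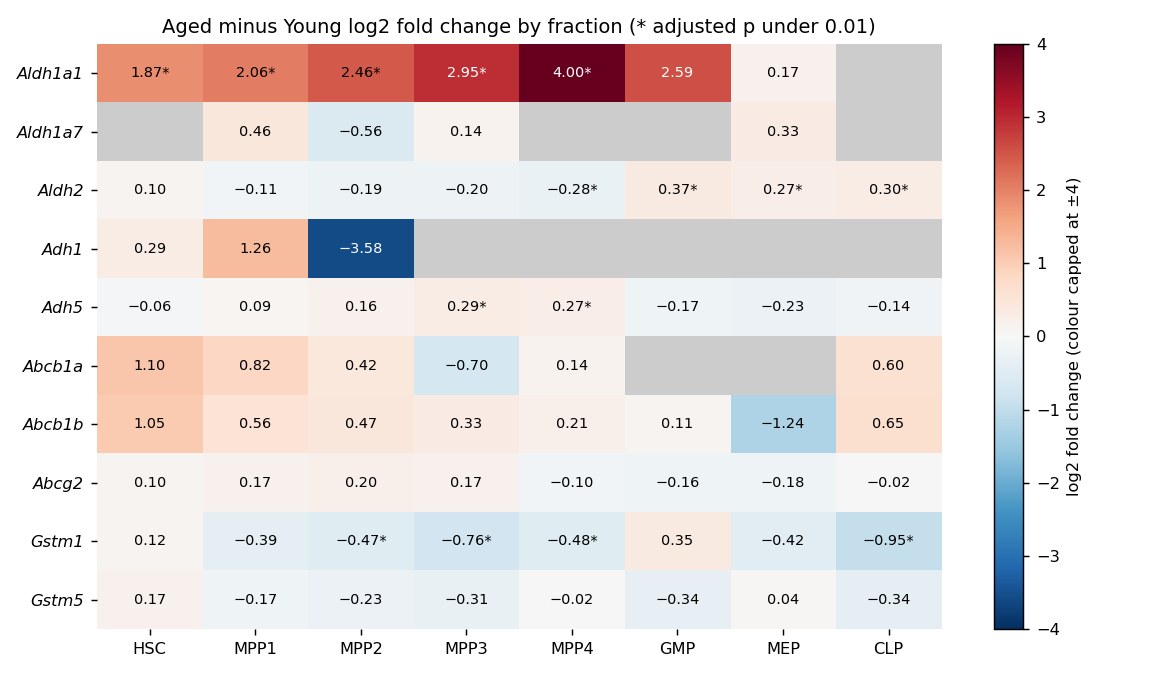
Age differences of the 10 genes in the 8 fractions, as log2 Aged over Young from the fit over all 32 libraries, with colors capped at 4 and a star at an adjusted p under 0.01. Grey cells had a group at 0 in both libraries or both groups at or under 3 counts, and the row of Aldh1a1 holds starred increases in HSCs and MPP1 to MPP4.

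Over fractions 23 of the 80 tests of a member were called higher and 33 lower than the MPPs. HSCs, GMPs, MEPs and CLPs were each compared with the mean of MPP1 to MPP4 within an age, so these tests share the MPPs. In Young cells 5 of 10 members were called higher in HSCs than in MPPs (19.2% of all genes) and 0 lower (18.9%; 1 at an unadjusted p under 0.05 and 0 by DESeq2). In Aged cells 6 were higher in HSCs (26%) and 1 lower (22.3%). The 5 higher at both ages were Aldh1a1, Aldh2, Abcg2, Gstm1 and Gstm5, and Abcb1a joined them in Aged cells. Among Young GMPs 1 member was higher (32.1%) and 5 lower (32.7%), and among Aged GMPs 2 higher (27.6%) and 6 lower (25.8%). Young MEPs had 4 higher (31.3%) and 4 lower (39.5%), and Aged MEPs 4 higher (30.1%) and 5 lower (36.5%). The 4 higher in MEPs were Aldh1a1, Aldh1a7, Abcg2 and Gstm5 at both ages. CLPs were low in most members, with 1 higher (28.2%) and 6 lower (25.2%) in Young cells, and 0 higher (26.3%; 0 at an unadjusted p under 0.05 and 0 by DESeq2) and 6 lower (26.4%) in Aged cells. The median log2 difference of the members from the MPPs was 0.91 in HSCs and -2.37 in CLPs of Young mice and 1.17 and -2.26 in those of Aged mice, while that of all genes lay between -0.29 and 0.07 over the 8 contrasts.

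**Figure D2:**
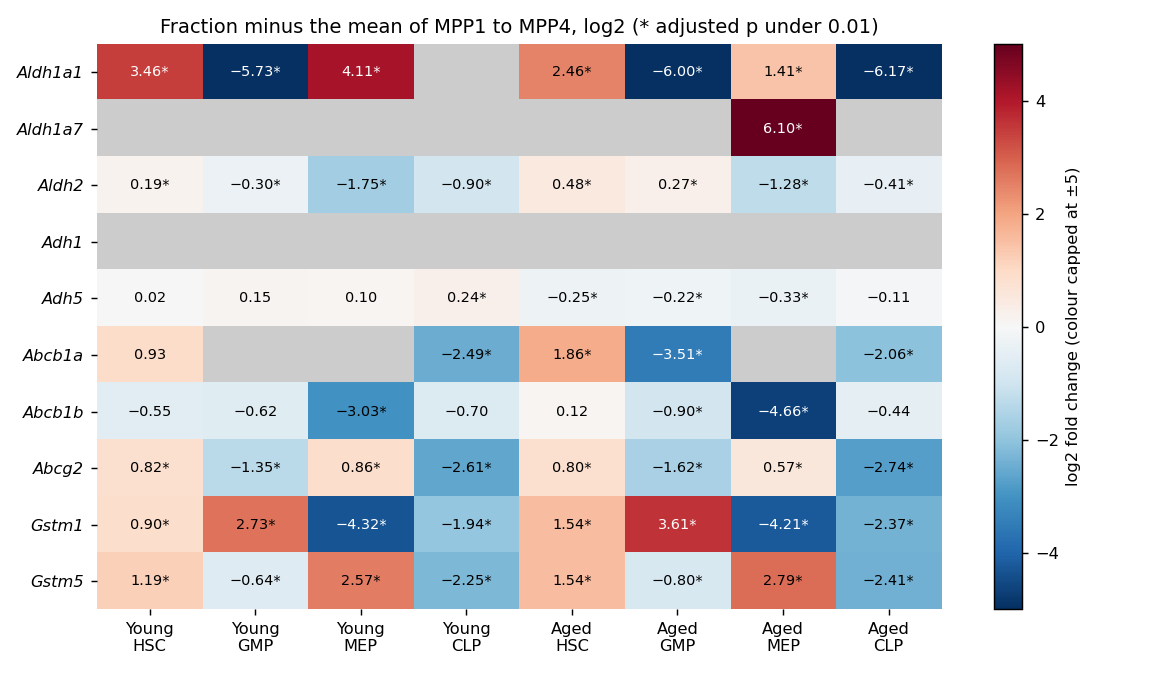
Levels of the 10 genes in HSCs, GMPs, MEPs and CLPs relative to the mean of MPP1 to MPP4 of the same age, as log2 differences from the fit with colors capped at 5, a star at an adjusted p under 0.01 and grey where the fraction or an MPP group was at 0. HSC columns hold 5 starred increases in Young and 6 in Aged cells, and CLP columns 5 starred decreases in Young cells, where Aldh1a1 is grey, and 6 in Aged cells.

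Compared per kilobase of exon, Aldh2 was the most abundant member, with a median over the 16 group means of 135.8 CPM per kb. Gstm1 had 93.6, Adh5 32.3, Gstm5 19.8, Abcg2 13.1, Aldh1a1 7.38 and Abcb1b 4.09. Abcb1a had 0.686, with 36 to 268 counts in each library of HSCs and MPP1 to MPP4 and few or none in the other fractions. Aldh1a7 had 0.433 and Adh1 0, with counts in 11 of 32 libraries. The spread between fractions was smallest for Adh5, whose highest group mean was 1.34 times its lowest, and was 4.09 times for Aldh2, 11.7 for Abcg2, 28.6 for Abcb1b, 36.9 for Gstm5 and 225 for Gstm1.

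**Figure D3:**
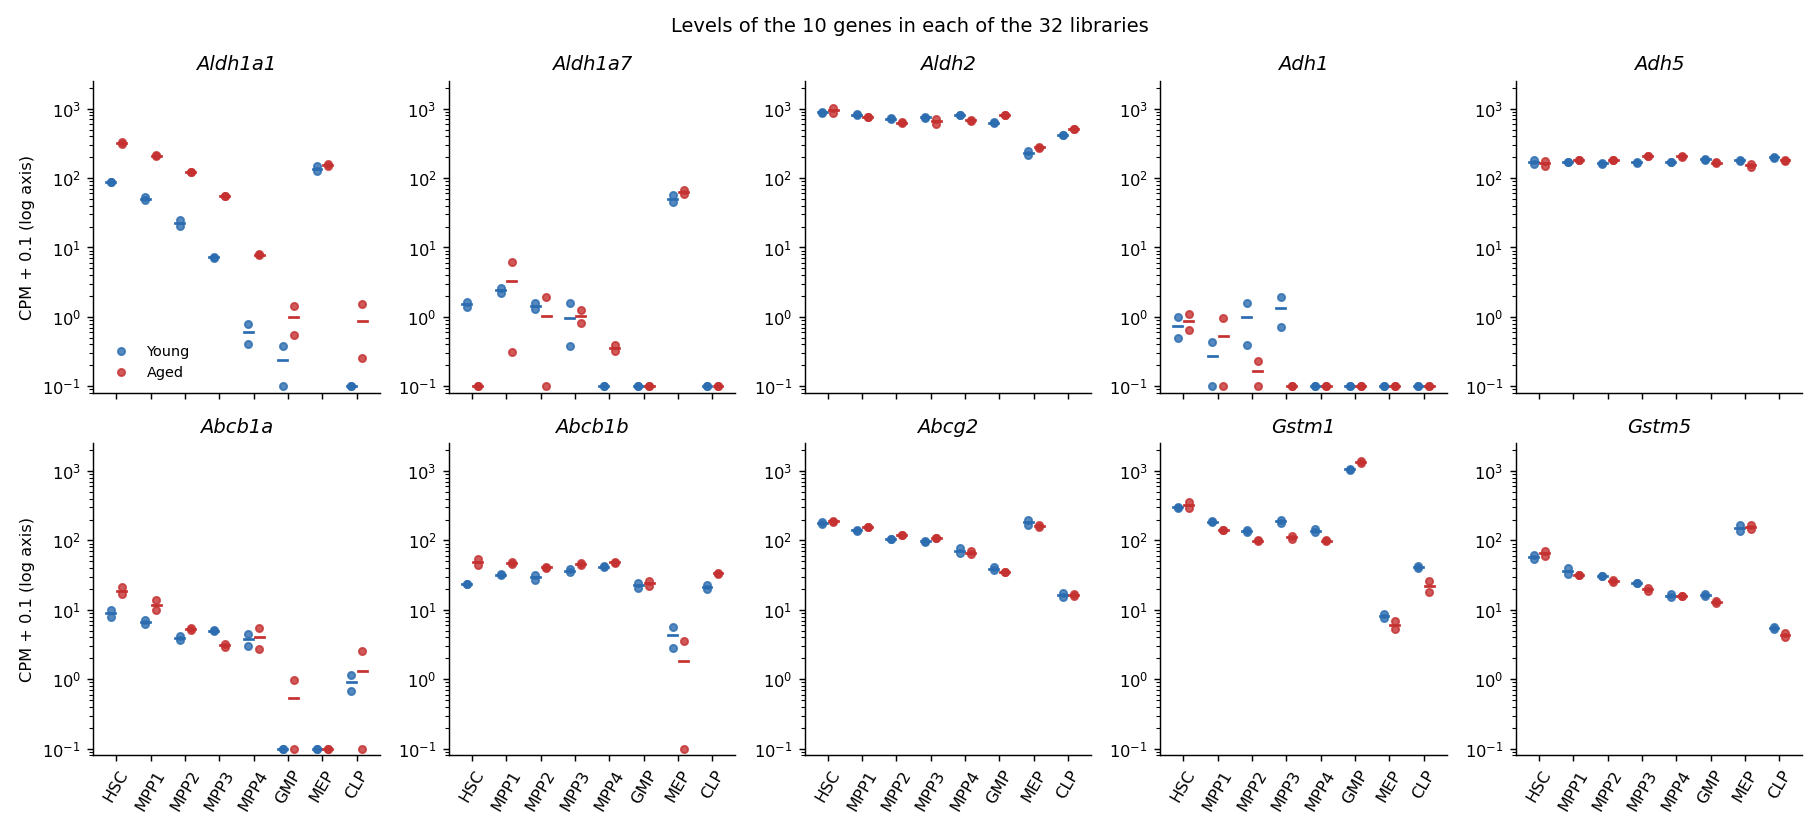
Levels of the 10 genes in every library, as CPM plus 0.1 on a log axis against the 8 fractions, with a point for each Young and Aged library and a bar at the mean of 2. Aldh1a1 falls from HSCs to MPP4 at both ages with Aged points above Young points, Gstm1 peaks in GMPs, and Aldh1a7 and Gstm5 peak in MEPs.

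Aldh1a1 formed a gradient down the multipotent cells at both ages, and the Aged gradient lay above the Young one at each of these steps. In Young cells it had 88.0 and 86.7 CPM in the 2 HSC libraries, 47.6 and 53.2 in MPP1 and 20.4 and 24.6 in MPP2. MPP3 had 7.15 and 7.05 CPM and MPP4 0.309 and 0.685, the latter from only 5 and 9 counts. Each step down lay outside the range of the step above, and the mean in HSCs was 176 times that in MPP4. In Aged cells the libraries had 328 and 310.2 CPM in HSCs, 211 and 209 in MPP1 and 123 and 124 in MPP2. MPP3 had 55.1 and 55.0 CPM and MPP4 7.64 and 7.95. The order was the same, the ratio of HSCs to MPP4 was 40.9, and Aged MPP1 and MPP2 both exceeded Young HSCs.

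The age difference of Aldh1a1 was called in each of these 5 fractions, and Young and Aged libraries did not overlap in any of them. It was 3.65-fold in HSCs (log2 1.87 ± 0.18, SE, adjusted p 5.61e-07) and 4.17-fold in MPP1 (2.06 ± 0.18, adjusted p 3.96e-07). It was 5.50-fold in MPP2 (2.46 ± 0.19, adjusted p 1.25e-07) and 7.75-fold in MPP3 (2.95 ± 0.22, adjusted p 3.47e-08). In MPP4 it was 15.7-fold (4.00 ± 0.41, adjusted p 5.90e-07), a ratio that rests on few Young counts. The log2 difference in HSCs was smaller than that of the MPP mean (-0.998 ± 0.23, adjusted p 0.00993, where 1.1% of all genes were called in this direction), which lies just inside the threshold. This call was lost without any one of the HSC, MPP1 or MPP2 libraries, Young MPP3 replicate 1, Young MPP4 replicate 1 or Aged MPP4 replicate 2 (adjusted p 0.0106 to 0.0345), and with DESeq2 size factors (0.0126), no filter on low counts (0.0108) or counts summed with Aldh1a7 (0.0111).

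Outside the multipotent cells Aldh1a1 was high in MEPs and near 0 in GMPs and CLPs. Young MEPs had 147 and 127 CPM, above every other Young fraction and 17.2 times the geometric mean of the MPPs (log2 4.11 ± 0.15, adjusted p 4.33e-16). Aged MEPs had 161 and 147 CPM, which overlapped the Young range and gave a log2 age difference of 0.17 ± 0.17 (adjusted p 0.519). MEPs were therefore first in the order of Young fractions and came after HSCs and MPP1 in that of Aged ones. GMPs held 0 and 4 counts in Young and 15 and 5 in Aged libraries (log2 2.59 ± 0.86, adjusted p 0.0279, not called by edgeR and called by DESeq2 with an adjusted p of 0.0036). CLPs held 0 and 0 counts in Young and 2 and 19 in Aged libraries, at least 3.20-fold higher against a floor of 3 counts per library (adjusted p 0.00768).

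The CLP result rested on single libraries and moved with other markers. It was lost without Aged CLP replicate 2 (adjusted p 0.192), without Young CLP replicate 1 (0.0606) or without Young CLP replicate 2 (0.0603). The summed level of 8 megakaryocyte markers was 38.4 to 40.0 CPM in Young and 131 and 216 CPM in Aged CLPs, with the higher value in the library that held 19 Aldh1a1 counts, and the part of these markers in the result was not tested. In MPP1 to MPP4 the red cell marker sum was lower in Aged cells while Aldh1a1 was higher, for example 2194 to 2205 against 905 to 929.8 CPM in MPP3. T and NK marker sums were higher in Aged HSCs (31.5 to 33.8 against 81.8 to 91.7 CPM, mostly Klrb1c) and in Aged MPP1 to MPP4 (mostly Nkg7). Macrophage sums were lower. In HSCs neutrophil and monocyte markers were also higher in Aged cells (261 to 286 against 551 to 731 CPM), as were mast cell and basophil markers (0.978 to 1.62 against 10.3 to 18.2) and megakaryocyte markers (1350.4 to 1421 against 1432 to 1629). The part of these lists in the Aldh1a1 results was not tested.

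**Figure D4:**
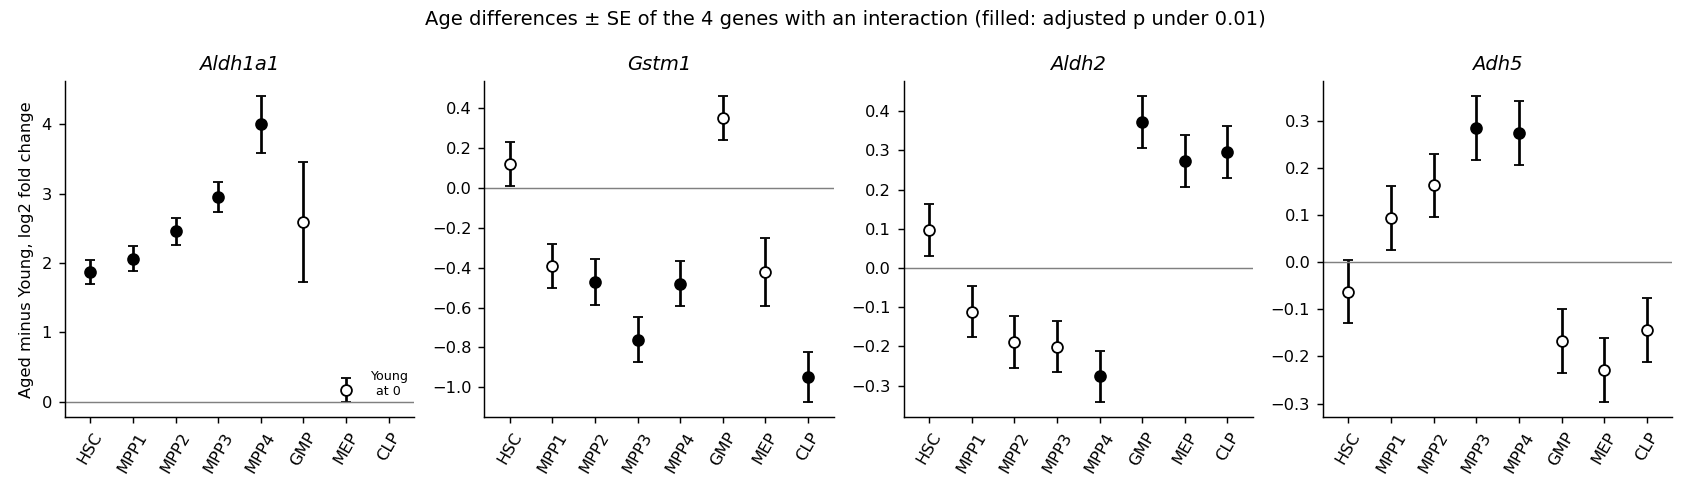
Age differences of Aldh1a1, Gstm1, Aldh2 and Adh5 in the 8 fractions as log2 Aged over Young with SE, filled where the adjusted p was under 0.01, on a scale of its own for each gene and with no point for Aldh1a1 in CLPs, where Young libraries were at 0. Aldh1a1 differences grow from 1.87 in HSCs to 4.00 in MPP4 and are 0.17 in MEPs, and Gstm1 differences are below 0 in MPP1 to MPP4, MEPs and CLPs.

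Aldh1a7, whose proximal promoter nearly matches one of Aldh1a1, followed it in MEPs but not in HSCs. It had 44.6 and 56.1 CPM in Young and 67.9 and 59.0 CPM in Aged MEPs, and in Aged cells this was 69.7 times the geometric mean of the MPPs (log2 6.10 ± 0.55, adjusted p 4.44e-08). In Young cells the MEPs were called higher as well (adjusted p 5.31e-08), with no ratio because Young MPP4 was at 0 in both libraries. HSCs held 19 and 20 counts in Young and 0 and 0 in Aged libraries, at least 6.52-fold lower in Aged cells against the floor, and this was not called (adjusted p 0.109). The direction was opposite to that of Aldh1a1 in the same libraries, which had 4197 and 4630 counts in Aged HSCs. MPP1 had 31 and 38 counts in Young and 3 and 95 in Aged libraries, MPP2 20 and 17 and 27 and 0, and MPP3 4 and 19 and 17 and 10. The Aged duplicates of MPP1 and of MPP2 thus disagreed by more than the ages did, and GMPs and CLPs were at 0 in all 8 libraries. The MEP libraries alone held most of the counts of this gene, and the log2 age difference there was 0.33 ± 0.67 (adjusted p 0.802).

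Aldh2 was abundant in every fraction and changed little, in opposite directions in MPP4 and in the restricted progenitors. In Young HSCs it had 877 and 887 CPM and in Aged HSCs 879.8 and 1006, with overlapping ranges and a log2 difference of 0.10 ± 0.07 (adjusted p 0.408). HSCs were the highest fraction at both ages and MEPs the lowest, at 218 and 243 CPM in Young and 275 and 282 in Aged cells, 3.36 and 2.43 times below the MPPs. In MPP4 it fell by 0.28 on the log2 scale, from 821 and 814 to 655 and 695 CPM (SE 0.07, adjusted p 0.00318). MPP1, MPP2 and MPP3 also lay lower in both Aged libraries, with log2 differences of -0.11 ± 0.07, -0.19 ± 0.07 and -0.20 ± 0.07 that were not called (adjusted p 0.313, 0.0554 and 0.0296). DESeq2 called those in MPP2 (0.00557) and MPP3 (0.000485).

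In the restricted progenitors Aldh2 went the other way. GMPs had 634 and 629 CPM in Young and 815 and 819.7 in Aged libraries (log2 0.37 ± 0.07, adjusted p 0.000210), which took them from below the MPPs (-0.30 ± 0.05) to above them (0.27 ± 0.05). CLPs had 420.1 and 411 CPM in Young and 503 and 517 in Aged libraries (0.30 ± 0.07, adjusted p 0.00301), and MEPs differed by 0.27 ± 0.07 (adjusted p 0.00327). Of these calls the one in GMPs held without any single library. The MEP call was lost under 5 alternatives (adjusted p 0.0102 to 0.0698) and without Young MEP replicate 1 (0.124), Aged MEP replicate 1 (0.0169) or Aged MEP replicate 2 (0.0504). The MPP4 call was lost without Young MPP4 replicate 1 (0.0257) or Aged MPP4 replicate 1 (0.0409), the CLP call without Young CLP replicate 1 (0.0198), Young CLP replicate 2 (0.0286) or Aged CLP replicate 2 (0.0164), and both in fits of the fraction alone (0.023 and 0.0421). Some calls against the MPPs were as fragile. When trends with GC content and length were taken out, the log2 difference was 0.09 for Young HSCs (0.0716) and -0.07 for Young GMPs (0.139), and the Young HSC call was also lost without Young HSC replicate 1 (0.0212) or Young HSC replicate 2 (0.0237). The call in Aged GMPs was lost in 8 of the 10 fits that left out a library of this contrast. TMM scales to a reference library, and in 27 of 32 fits that left out a library it took another reference than the fit over all libraries, which moved the log2 scaling factor of Aged GMPs relative to the MPPs from -0.30 to between -0.27 and -0.16. All 10 fits were among the 27. The log2 difference of Aldh2 there was 0.13 to 0.16 (adjusted p 0.0105 to 0.0847) without any one of the Aged MPP1, MPP2 or GMP libraries, Aged MPP3 replicate 1 or Aged MPP4 replicate 1, and 0.15 (0.0341) in a fit of Aged libraries alone. It was still called without Aged MPP3 replicate 2 or Aged MPP4 replicate 2 and with DESeq2 size factors, and the cause of the losses was not tested. B lineage markers summed to 205 to 211 CPM in Young MEPs and 0.861 to 1.22 in Aged ones, and red cell markers to 802 to 877 CPM in Young GMPs and 51.0 to 111 in Aged ones. In CLPs B lineage markers summed to 2875 to 2945 CPM in Young and 1346 to 1357 in Aged libraries, macrophage markers to 205 to 219 and 27.1 to 32.03, and mast cell and basophil markers to 1739.8 to 1788 and 8.26 to 12.3. In MPP4 megakaryocyte markers summed to 257 to 266 CPM in Young and 82.6 to 82.9 in Aged libraries. Their part in these results was not tested.

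Adh5, the formaldehyde enzyme that works beside Aldh2, was the most even of the 10 genes. Its group means lay between 153.8 CPM in Aged MEPs and 206 CPM in Aged MPP3. It was higher in Aged MPP3, from 173 and 166 to 207 and 205 CPM (log2 0.29 ± 0.07, adjusted p 0.00362), and in Aged MPP4, from 168 and 173 to 211 and 201 CPM (0.27 ± 0.07, adjusted p 0.00409). Aged libraries also lay above Young ones in MPP1 and MPP2 and below them in GMPs, MEPs and CLPs, with none of these 5 called. The nearest of them was MEPs at -0.23 ± 0.07 (adjusted p 0.0124), which DESeq2 called (7.94e-05). Both calls were lost with no filter on low counts (0.0106 and 0.0181) and in fits of the fraction alone (0.0157 and 0.0299), the MPP3 call without Young MPP3 replicate 2 (0.0158), and the MPP4 call with DESeq2 size factors (0.0147) and without Young MPP4 replicate 1 (0.0435), Young MPP4 replicate 2 (0.0107) or Aged MPP4 replicate 1 (0.0309). Across fractions Adh5 was higher in Young CLPs than in Young MPPs (0.24 ± 0.05, adjusted p 0.000403), a call lost without Young CLP replicate 1 (0.0182) or Young CLP replicate 2 (0.0275). In Aged cells HSCs, GMPs and MEPs were called lower than MPPs, at log2 differences of -0.25 ± 0.05, -0.22 ± 0.05 and -0.33 ± 0.05, and the HSC call was lost when trends with GC content and length were taken out (0.0303). The macrophage marker sum was lower in both Aged fractions, at 51.4 to 51.8 against 159.8 to 170.0 CPM for MPP3, while MPP4 had 30.2 to 30.3 against 84.8 to 98.2 CPM. Red cell markers in MPP4 summed to 1219.9 to 1445 CPM in Young and 603 to 642 in Aged libraries, and the part of these markers in the Adh5 results was not tested.

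Adh1 was barely detected. It had 115 counts over all 32 libraries and none in 21 of them. HSCs held 11 and 6 counts in Young and 13 and 8 in Aged libraries, MPP2 4 and 21 and 0 and 2, and MPP3 9 and 24 and 0 and 0. MPP1 held counts in 1 library of each age (5 in Young and 12 in Aged), and MPP4, GMPs, MEPs and CLPs were at 0 in all 16 libraries. Young MPP3 was at least 5.92-fold above Aged MPP3 against the floor, which was not called (adjusted p 0.0501). Stromal and endothelial markers summed to 294 to 303 CPM in Young and 171 to 189 in Aged MPP3, where 0 of 9 tested were called higher and 4 lower. In MPP2 they summed to 227 to 233 CPM in Young and 171 to 176 in Aged libraries. The part of these markers in the Adh1 counts was not tested.

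The efflux pumps had different fraction profiles and no age difference that was called in the fit over all libraries. Abcg2 was highest in HSCs and MEPs. Young HSCs had 171 and 182 CPM and Young MEPs 169 and 194, which overlapped. It stepped down without overlap through MPP1 (137 and 141), MPP2 (104 and 106), MPP3 (99.6 and 93.4) and MPP4 (65.5 and 77.2). GMPs (40.8 and 37.7 CPM) and CLPs (17.4 and 15.4) were lowest. Relative to the MPPs Young HSCs were 1.76-fold (log2 0.82 ± 0.06, adjusted p 2.89e-10) and Young MEPs 1.81-fold higher (0.86 ± 0.06, adjusted p 1.53e-11), and Young CLPs 6.10-fold lower. Aged cells kept the same steps from HSCs to MPP4 at 193 and 184 CPM in HSCs and 69.4 and 64.0 in MPP4. Aged libraries lay above Young ones in HSCs, MPP1, MPP2 and MPP3 and below them in GMPs and MEPs, by at most 0.20 on the log2 scale (0.20 ± 0.08 in MPP2, adjusted p 0.0993). A fit of MPP2 alone called this difference (0.00621), and DESeq2 called the one in MEPs (0.0083).

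Abcb1a was a gene of HSCs and early MPPs at low levels. Young HSCs had 7.69 and 9.84 CPM, MPP1 7.10 and 6.17 and MPP4 2.91 and 4.41. Aged HSCs had 21.0 and 16.8 CPM and Aged MPP1 9.72 and 13.6, above the Young ranges. The log2 age difference in HSCs was 1.10 ± 0.58, 2.15-fold, and missed the threshold (adjusted p 0.262), and that in MPP1 was called in a fit of MPP1 alone (0.83, adjusted p 0.00958). Aged HSCs were 3.64-fold above the Aged MPPs (log2 1.86 ± 0.42, adjusted p 0.000843), a call lost with DESeq2 (0.016) and without Aged HSC replicate 1 (0.0224). MEPs were at 0 in all 4 libraries, against the floor at least 22.7-fold below the MPPs in Young and 19.3-fold in Aged cells. Young GMPs were at 0 as well, at least 22.0-fold below against the floor. Aged GMPs held 0 and 10 counts, Young CLPs 7 and 13 and Aged CLPs 0 and 33. These 3 groups were called lower than the MPPs, but the calls were lost without Aged GMP replicate 1 (0.0158), Young CLP replicate 1 (0.0546), Young CLP replicate 2 (0.0209), Aged CLP replicate 1 (0.0758), Aged MPP1 replicate 2 (0.0115), Aged MPP2 replicate 2 (0.0102) or Aged MPP4 replicate 1 (0.0127), and that of Aged CLPs with DESeq2 (0.0127) or a fit of Aged libraries alone (0.0179).

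Abcb1b, the neighboring P-glycoprotein gene, was spread more widely. In Young cells it was lowest in MEPs (5.63 and 2.73 CPM) and highest in MPP4 (42.3 and 41.2), with HSCs between at 23.6 and 23.7. Aged HSCs had 54.2 and 44.2 CPM, 2.08-fold above Young HSCs, and Aged libraries lay above Young ones in HSCs, MPP1 to MPP4 and CLPs. None of the 6 was called. The largest, in HSCs, was 1.05 ± 0.30 on the log2 scale (adjusted p 0.0236), and when only the libraries of a fraction were fitted MPP1 (0.000733) and MPP2 (0.00379) were called. Relative to the MPPs, HSCs were at a log2 difference of -0.55 ± 0.24 in Young cells (adjusted p 0.0679) and 0.12 ± 0.22 in Aged cells (adjusted p 0.695), neither of them called. MEPs were called lower than MPPs at both ages (log2 -3.03 ± 0.32 and -4.66 ± 0.38), and Aged GMPs as well (-0.90 ± 0.25), the last lost without Aged GMP replicate 1 (0.0359) or Aged GMP replicate 2 (0.0119). The Aged MEP libraries held 0 and 40 counts.

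Gstm1 peaked in GMPs, was lowest in MEPs and fell with age in MPP2, MPP3, MPP4 and CLPs. Young GMPs had 1084 and 1052 CPM, 6.64 times the geometric mean of the MPPs (log2 2.73 ± 0.08, adjusted p 4.16e-18), and Aged GMPs 1325 and 1397 CPM, 12.2 times (3.61 ± 0.08, adjusted p 4.97e-20). HSCs were second, with 301 and 298 CPM in Young and 293 and 358 in Aged libraries. They exceeded the MPPs 1.86-fold in Young and 2.92-fold in Aged cells (adjusted p 1.18e-08 and 6.57e-13). MEPs had 7.55 and 8.61 CPM in Young and 6.84 and 5.25 in Aged libraries, 19.9 and 18.5 times below the MPPs. Summed over the Gstm genes, Gstm5 among them, the log2 difference of MEPs from MPPs was -0.47 in Young cells in place of -4.32 ± 0.13 and -0.04 in Aged cells (adjusted p 0.689) in place of -4.21 ± 0.14.

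The age difference of Gstm1 was called lower in MPP2, MPP3, MPP4 and CLPs. In MPP3 it went from 181 and 196 to 106 and 116 CPM, 1.70-fold lower (log2 -0.76 ± 0.11, adjusted p 5.05e-05), and in CLPs from 40.2 and 43.3 to 17.7 and 25.6 CPM, 1.93-fold lower (-0.95 ± 0.13, adjusted p 1.97e-05). MPP2 went from 132 and 142 to 97.5 and 100.1 CPM (-0.47 ± 0.11, adjusted p 0.00683) and MPP4 from 131 and 146 to 98.1 and 101 CPM (-0.48 ± 0.11, adjusted p 0.00319). Young and Aged ranges were apart in all 4. MPP1 differed by -0.39 ± 0.11 (adjusted p 0.0238) and GMPs, in the other direction, by 0.35 ± 0.11 (adjusted p 0.0202), both uncalled here and called by DESeq2 (0.000489 and 0.000913). HSCs, with overlapping ranges, differed by 0.12 ± 0.11 (adjusted p 0.575), and this exceeded the mean of the MPPs by 0.65 ± 0.13 on the log2 scale (adjusted p 0.00262, where 1.91% of all genes were called in this direction). That call was lost without Young HSC replicate 1 (0.0196), Young HSC replicate 2 (0.0347) or Aged HSC replicate 2 (0.0296).

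The calls in MPP2 and MPP4 were less firm than those in MPP3 and CLPs. The MPP2 call was lost without Young MPP2 replicate 1 (adjusted p 0.0306), Young MPP2 replicate 2 (0.0729), Aged MPP2 replicate 1 (0.0708) or Aged MPP2 replicate 2 (0.047) and when the Gstm genes were summed (0.0118), and the MPP4 call without Young MPP4 replicate 2 (0.0349), Aged MPP4 replicate 1 (0.0298) or Aged MPP4 replicate 2 (0.02). The MPP3 call held in every such fit and the CLP call in all but a fit of CLPs alone (0.0322). Sums of myeloid markers moved with some of these results and against others. The summed level of 10 neutrophil and monocyte markers, which like Gstm1 peaks in GMPs, was 4301 to 4553 CPM in Young and 2227 to 2251 in Aged MPP3, 2419.7 to 2527 and 1839.7 to 1859 in MPP2, and 2064 to 2122 and 805 to 886 in CLPs. In MPP4 the sum was higher in Aged cells (811 to 861 against 909 to 937 CPM) while Gstm1 was lower. Mast cell and basophil markers summed to 1739.8 to 1788 CPM in Young CLPs and 8.26 to 12.3 in Aged ones. The part of these markers in the results of MPP2, MPP3, MPP4 and CLPs was not tested.

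**Figure D5:**
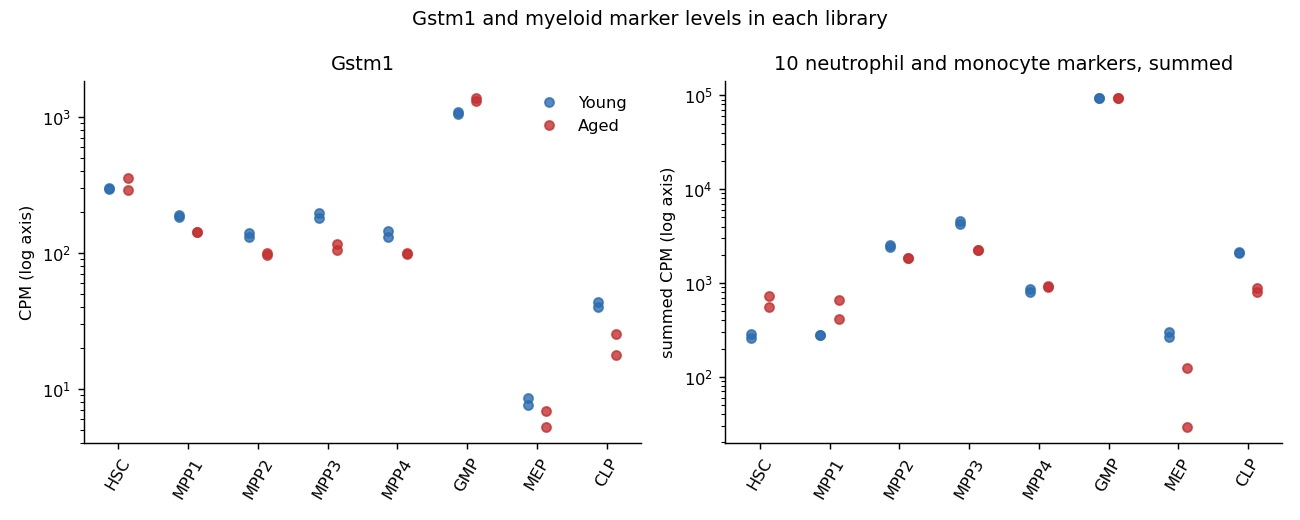
Gstm1 level (left) and summed level of 10 neutrophil and monocyte markers (right) by fraction, both in CPM on log axes, with a point for each Young and Aged library. Both peak in GMPs, with Gstm1 between 1052 and 1397 CPM and marker sums of at least 93133 CPM. In MPP4 the Aged points lie below the Young ones for Gstm1 and above them for the marker sum, though Mpo, its largest part, was lower.

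Gstm5 had the profile of a gene of HSCs and MEPs. MEPs had 165 and 139 CPM in Young and 167 and 146 in Aged libraries, 5.94 and 6.94 times the MPPs (adjusted p 7.97e-18 and 1.89e-18). HSCs followed with 54.8 and 61.6 CPM in Young and 59.2 and 71.5 in Aged libraries, and levels then stepped down without overlap from MPP1 (32.3 and 39.5 in Young cells) to MPP3 (24.5 and 24.2). CLPs were lowest, at 5.26 and 5.51 CPM in Young and 3.94 and 4.53 in Aged libraries. The genes Gstm1 and Gstm5 thus sat at opposite ends in MEPs. Aged libraries of Gstm5 lay below Young ones in MPP1, MPP2, MPP3, GMPs and CLPs, and the largest log2 differences, -0.34 ± 0.13 in GMPs and -0.34 ± 0.17 in CLPs, were not called (adjusted p 0.0524 and 0.187). Reads of the overlapping antisense gene cannot be told apart from those of Gstm5 where strand was not used.

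Whether the age difference of a gene varied between the 8 fractions was tested by an interaction with 7 degrees of freedom. It was called for 4 of the 10 members, Aldh1a1 (adjusted p 1.10e-06), Aldh2 (8.50e-06), Gstm1 (1.78e-05) and Adh5 (0.000219), where 34.9% of all genes were called. The share of members was near that of all genes. Abcg2 had an adjusted p of 0.0229 and was called by DESeq2 (0.000183) and in 14 of the 32 fits that left out a library, and the other 5 had values between 0.0827 and 0.405. The HSC difference minus the MPP mean was called for 2 members, Aldh1a1 and Gstm1, as given above, and Aldh2 (0.29 ± 0.07, adjusted p 0.0169, called by DESeq2 at 4.21e-05) and Adh5 (-0.27 ± 0.08, adjusted p 0.0309) came next.

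Over the 16 group means of log2 CPM the members fell into different company, given as a description, since the Young and Aged groups of a fraction are not independent points. Abcg2 correlated with Aldh1a1 at Pearson r 0.91 and with Gstm5 at 0.88, and Gstm5 with Aldh1a7 at 0.81. Aldh2 went with Gstm1 (0.83) and Abcb1b (0.81), and Abcb1b ran against Aldh1a7 (-0.77). Over all genes tested, the 3 most like Aldh1a1 were Podxl (r 0.95), C530008M17Rik (0.95) and Soat2 (0.93). For Aldh1a7 they were Slc43a1 (0.95), Optn (0.93) and Mapk9 (0.93), and for Aldh2 Tspan9 (0.98), Tbkbp1 (0.98) and Tmem198b (0.97). The genes most like Abcg2 were Tom1l1 (0.98), Tal1 (0.98), a transcription factor of the erythroid and stem cell programs, and Tfr2 (0.97), a transferrin receptor. Those of Gstm1 were its neighbor Gstm4 (0.99), Ralb (0.98) and Il22ra2 (0.98), and those of Gstm5 were Syngr1 (0.98), Selenbp1 (0.98) and Fzd7 (0.98). Abcb1a went with Rbfox2 (0.99), Dusp4 (0.99) and Tubb4a (0.98), and Abcb1b with Smad1 (0.99), Atp10a (0.99) and BC028528 (0.98). Adh5 had the weakest likeness, with Ywhae (0.81), Prdx1 (0.79), a peroxiredoxin, and Fkbp3 (0.77), and Adh1, with few counts, went with Adgrf5 (0.97), Epas1 (0.93) and Prelp (0.92).

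Other genes of the same families and pathways were counted in the same age tests. Of 112 tests over 14 other aldehyde dehydrogenases, 12 were called higher and 7 lower (17.0% together). Over all genes 7.01% of age tests were called higher and 5.57% lower. The share of calls in the lists below was 6.25% for Esd and its list, 14.3% for the other efflux pumps and 11.8% for the transferases. It was 11.3% for glutathione supply and breakdown, 3.75% for enzymes of foreign compounds and 19.3% for the regulators. These shares are descriptions, since genes and fractions within a list are not independent. Aldh18a1, which makes the precursor of proline, was higher in MPP1 to MPP4, for example 159 against 230.4 CPM (group means) in MPP4 (log2 0.53 ± 0.07, adjusted p 5.24e-06). Aldh6a1, of valine breakdown, was lower in MPP3 (-0.47 ± 0.12) and MPP4 (-0.56 ± 0.12) and higher in CLPs (0.57 ± 0.13). Esd, which completes formaldehyde removal after Adh5, was lower in GMPs (-0.44 ± 0.08, adjusted p 0.000273), the 1 call in 16 tests over Esd and another gene of its list. Of 56 tests over 7 other efflux pumps 2 were higher and 6 lower. Of the 6, 4 were Abcb4, a phospholipid transporter, in MPP2 (-1.21 ± 0.18), MPP3 (-1.70 ± 0.20), MPP4 (-1.20 ± 0.21) and GMPs. In the fit over all libraries the Abcb1 genes had no call in these fractions. Their errors were larger, for example 0.64 for Abcb1a and 0.29 for Abcb1b in MPP3, and whether their age differences differed from those of Abcb4 was not tested.

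Among 17 other glutathione S-transferases 5 of 136 tests were higher and 11 lower. Mgst1, a membrane-bound transferase, gave 6 of the lower calls, in HSCs (-0.83 ± 0.15, adjusted p 0.000772), MPP1, MPP3, MPP4, MEPs and CLPs (-1.63 ± 0.18). Gstm2, a neighbor of Gstm1, was higher in Aged HSCs, at 41.3 against 9.37 CPM (2.14 ± 0.29, adjusted p 8.59e-05). Of 80 tests of genes of glutathione supply and breakdown the 9 called were higher in Aged cells. Over all age tests 7.01% were called higher and 5.57% lower. Gclm, the regulatory subunit of the enzyme that limits glutathione synthesis, accounted for 5 of the 9, in HSCs (0.58 ± 0.07, adjusted p 6.51e-06), MPP1 (0.62 ± 0.07), MPP2 (0.57 ± 0.07), MPP3 (0.34 ± 0.07) and MPP4 (0.39 ± 0.07). Ggt1, which recovers extracellular glutathione, accounted for 3. The last was Chac2, a gene of glutathione breakdown, in HSCs (log2 1.09, adjusted p 0.00317). Of the 160 tests over 20 other enzymes of foreign compounds 2 were higher and 4 lower. Sult1a1, a sulfotransferase, rose in HSCs from 106 to 277 CPM (1.38 ± 0.18, adjusted p 4.39e-05) and fell in MPP3 (-1.30 ± 0.34), where it had 3.45 CPM in Young cells.

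Dhrs3, which turns retinaldehyde back into retinol, was higher in HSCs (1.39 ± 0.20) and lower in MEPs (-1.59 ± 0.29). Of 88 tests over 11 regulators of detoxification genes 7 were higher and 10 lower, and Mafk, a partner of Nfe2l2, was lower in MPP1 (-0.80 ± 0.10), MPP2 (-0.70 ± 0.11), MPP3 (-0.62 ± 0.10) and MPP4 (-0.86 ± 0.10) and higher in GMPs (0.52 ± 0.11). Nfe2l1 was higher in GMPs (0.93 ± 0.11) and MEPs (0.57 ± 0.11). Medians of the lists counted above, with genes at 0 set at their bounds, lay between -0.49 and 1.04, both extremes being the short list of Esd, in MPP1 and in GMPs.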

How the data were processed

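RNA was measured in 32 libraries from sorted bone marrow fractions. Per the labels and the study's methods, the authors made cDNA with a SMARTer Ultra Low Input kit, sequenced single reads, aligned them to mm10 with TopHat2 2.0.13 and Bowtie2 2.1.0, and deposited raw counts per gene made with StringTie. Whether counting used strand is not given in the sources used here. Of the rows, 27 carried dates in place of gene names and held 0.188% of counts.

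Counts were tested with edgeR's quasi-likelihood F-test, scaled by TMM and filtered by filterByExpr, in one fit of all 16 groups with 16 residual degrees of freedom. Adjusted p-values are Benjamini-Hochberg values over 14154 genes within each contrast, and errors of log2 differences are SE. The code was tested on simulated data. Alternatives were DESeq2, its size factors, no filter, separate fits, a replicate block, offsets for GC content and length, other thresholds and leaving out each library. In a further one counts were summed over paralogs (Aldh1a1 with Aldh1a7, Abcb1a with Abcb1b, and the Gstm genes). All 10 members are described in every contrast, at most 3 called genes with the largest change per other list and contrast were eligible for naming, and the 3 most correlated genes are given per member. The members and lists were chosen with earlier results of these data known. Counts over the list of retinoid genes are not reported here.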

Additional observations from a re-analysis of the deposited data

Results flagged for a closer look

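The age difference of 4 genes varied between the 8 fractions by the test of the interaction itself in edgeR: Aldh1a1 (adjusted p 1.10e-06), Aldh2 (8.50e-06), Gstm1 (1.78e-05) and Adh5 (0.000219). For Aldh1a1 the log2 difference in HSCs minus that of the MPP mean was -0.998 (adjusted p 0.00993), and for Gstm1 it was 0.65 (0.00262). Both of these calls were lost when some single libraries were left out, as given above. Aldh1a1 was higher in both Aged libraries than in both Young libraries in 7 of 8 fractions, and Gstm1 was lower in 6.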

How the results depend on the processing

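No direction of a called result turned under any alternative. Of 78 called single values, DESeq2 kept 76 past the threshold, its size factors 75, no filter on low counts 74 and removal of trends with GC content and length 74, and separate fits kept 65 of 73. Age tests called higher numbered 11 and fell to 6 when an absolute log2 difference of at least 1 was also asked. Those called lower numbered 5 and were 10 with DESeq2, 8 at an adjusted p under 0.05 and 0 with the log2 limit. The 2 members whose age difference differed between HSCs and MPPs became 1 with no filter, 4 at an adjusted p under 0.05 and 0 with the log2 limit, and the 23 fraction tests called higher became 14 with that limit. Leaving out each library gave 8 to 13 age tests higher, 3 to 7 lower, 4 to 5 interactions, 0 to 3 HSC and MPP differences, 21 to 24 fraction tests higher and 32 to 38 lower, and 18 of the 78 lost their call in at least 1 such fit. In 27 of the 32 the TMM reference library also changed, so these ranges hold a change of scaling as well as of libraries. The replicate block changed no call among the 78. Within a fraction the differences between replicates of the 2 ages correlated at -0.056 to 0.070 over the 8 fractions, so the numbers showed no pairing of Young with Aged libraries. Whether fractions of the same age and replicate number came from the same marrow pool was not examined. The block cannot show it, as it fits a common effect over both ages. Over all genes DESeq2 called 1428 age differences in HSCs against 764, 1671 against 963 in MPP1 and 1897 against 1105 in MPP2. Separate fits called 207 in HSCs, 2421 in MPP1, 3336 in MPP2, 1294 against 1972 in MPP3, 1458 against 2347 in MPP4, 1149 against 2674 in GMPs, 734 against 2943 in MEPs and 128 against 1478 in CLPs. The cause of these changes was not tested. Aldh1a7 and Adh1 had few counts or none in most groups, which limits what their tests can show.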
